A study of Mus musculus with 11 samples.

Results

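The genes described here are 34 interferon-stimulated genes, transcripts that cells raise when a type I, II or III interferon binds its receptor. They were taken by symbol from a list of such genes and not by a cut on their measured values. The list was chosen with earlier results of these data known. It holds 34 of the 49997 gene symbols in each of the 2 deposited tables. All 34 were found in both tables. RNA had been sequenced from hormone-secreting cells of the colon of ovariectomised C57BL/6 female mice, 10 to 14 weeks old, to ask what estradiol does to these cells. The L-cell groups were estradiol benzoate (EB, an ester of estradiol) with 3 libraries and sesame oil vehicle with 2 libraries, both from Cck-Cre;R26LSL-tdTomato mice 4 hours after treatment. The EC-cell (enterochromaffin) groups were EB with 4 libraries and sesame oil vehicle with 2 libraries, both from ECFLTG mice, for which the labels give no hours. About 7000 L cells were collected per treatment group, and at least 500 EC cells per library. Ovariectomy was common to every group, vehicle included. In the L-cell mice tdTomato marks cells in which Cre driven from Cck has been active. Whether the libraries within a group derive from different animals is not in the labels; a p-value here covers just the library-to-library spread, which may be technical.

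Interferons act through receptors on the cell surface, the JAK kinases and the STAT transcription factors. Type I and type III interferons act mainly at the interferon-stimulated response element, a short promoter sequence, and type II interferon acts mainly at gamma-activated sites. The induced genes encode RNA sensors, enzymes that degrade or modify viral RNA, the ubiquitin-like modifier ISG15 and further transcription factors such as IRF7. In the intestinal epithelium the type III receptor is prominent, and a low level of these transcripts is present without infection.

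The response element can be read in the sequences of several of these promoters. RefSeq promoter windows of GRCm38.p6, 250 bases before to 50 bases after a transcript start, were matched for 25 of the 34 genes. The core of the response element, GAAA repeated after any 2 bases and searched on both strands, was found in a window of 12 of these 25 genes (48%), against 3.99% of 27025 genes with a window and 3.44% of all 32851 windows. The genes with the core were Ifit1, Ifit3, Isg15, Stat2, Oas1a, Oas3, Rsad2, Ddx58, Ifih1, Bst2, Gbp2 and Gbp3. The gamma-activated core, TTCNNNGAA, was found for 6 of 25 genes (24%), against 9.55% of all genes and 8.3% of all windows, and those were Ifit2, Isg20, Irf1, Oas1a, Ifi35 and Bst2. The gamma-activated core reads the same on both strands, and in the window of Bst2 it overlapped a response element core. The 200 bases before the start are given for 5 genes with the core, 4 of them lower in all EB than in all vehicle L-cell libraries (Isg15, Ifit3, Oas3 and Rsad2). The fifth, Ifit1, neighbours Ifit3. They were picked after their values were seen. Capitals mark the core, and 3 overlapping copies make up the capitals of Isg15. The stretches lie at chr4:156200819-156201018, minus strand, chr19:34640689-34640888, plus strand, chr19:34583329-34583528, plus strand, chr5:120777660-120777859, minus strand and chr12:26456453-26456652, minus strand, and each is written 5′ to 3′ on the strand of its gene. For Ifit3 and Oas3 the transcript start used lies inside the outer bounds of the gene.
Isg15: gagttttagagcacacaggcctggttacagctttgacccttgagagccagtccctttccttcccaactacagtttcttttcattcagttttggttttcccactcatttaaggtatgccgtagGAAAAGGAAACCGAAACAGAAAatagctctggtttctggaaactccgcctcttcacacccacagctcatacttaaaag
Ifit1: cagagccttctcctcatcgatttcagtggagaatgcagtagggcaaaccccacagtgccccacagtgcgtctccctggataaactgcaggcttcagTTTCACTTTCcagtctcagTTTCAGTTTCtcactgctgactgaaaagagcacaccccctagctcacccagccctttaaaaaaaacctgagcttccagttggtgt
Ifit3: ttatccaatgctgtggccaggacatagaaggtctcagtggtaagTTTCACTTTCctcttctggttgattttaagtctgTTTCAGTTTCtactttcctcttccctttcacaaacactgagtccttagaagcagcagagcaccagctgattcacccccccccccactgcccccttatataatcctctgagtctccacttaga
Oas3: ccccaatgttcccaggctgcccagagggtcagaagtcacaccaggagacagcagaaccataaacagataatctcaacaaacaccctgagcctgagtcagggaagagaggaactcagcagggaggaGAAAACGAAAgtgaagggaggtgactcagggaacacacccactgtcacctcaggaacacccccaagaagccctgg
Rsad2: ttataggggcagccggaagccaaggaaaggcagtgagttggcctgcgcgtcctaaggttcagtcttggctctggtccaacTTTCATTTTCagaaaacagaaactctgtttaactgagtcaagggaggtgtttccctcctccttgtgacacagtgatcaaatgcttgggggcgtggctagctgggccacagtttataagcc
Ifit1 and Ifit3 carry a pair of cores each, all on the strand opposite to the gene, as is the core of Rsad2, so that they read TTTC repeated as printed. The cores of Isg15 and Oas3 lie on the strand of the gene. A match of letters is a description of the sequence and does not show that a factor binds there.

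**Figure D1:**
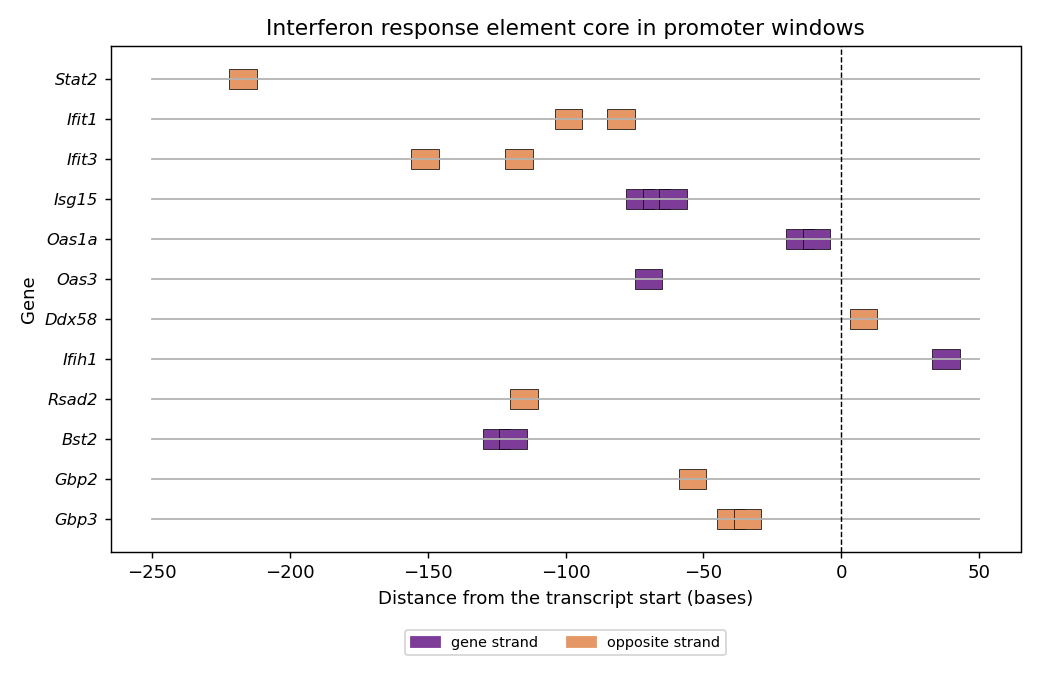
Positions of the interferon response element core in the promoter windows of the 12 genes that hold it, with distance from the transcript start in bases on the x axis and a gene per row. Boxes are matches, coloured by strand, and most of them lie upstream of the start, from -222 in Stat2 to -14 in Oas1a, while those of Ddx58 and Ifih1 lie downstream.

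The libraries hold transcripts of other epithelial cells besides the labelled ones. Reads counted on genes numbered 27658579 to 31449447 per L-cell library and 4955808 to 10640921 per EC-cell library. In the L-cell libraries 7 L-cell hormone markers took 0.0646% to 0.311% of reads in EB and 0.0190% to 0.0482% in vehicle, while 12 colonocyte markers took 5.62% to 6.08% in EB and 7.49% to 9.18% in vehicle. The same L-cell hormone markers took 0.129% to 1.07% in EB and 0.287% to 1.88% in vehicle EC-cell libraries. In vehicle their share was thus higher in every EC-cell library than in any L-cell library. In EC cells, 7 EC-cell markers took 0.811%, 1.10%, 4.72% and 12.3% of reads in the EB libraries, against 7.36% and 8.82% in the vehicle libraries. All 7 markers of each labelled cell type had reads in every library of that type. The names L cells and EC cells therefore stand for these libraries, and in such bulk samples fewer cells of a type and less RNA per cell cannot be told apart.

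In L cells the interferon-stimulated genes were slightly lower with EB, by amounts that did not pass the test for any single gene. On the log2(value + 1) scale, 28 of 34 genes had a fold change below 0, against 50.3% of the 16217 genes tested. The other 6 (Irf9, Stat2, Usp18, Gbp2, Gbp3 and Herc6) were above 0, as were 49.7% of all genes. The median log2 fold change was -0.24 over the 34 and -0.0022 over all genes. It was -0.22 after TMM scaling and -0.32 after quantile normalisation. None of the 34 was called at a limma adjusted p under 0.05, nor by edgeR or DESeq2. Of all genes 4 were called by limma (0.0247%), 2 higher and 2 lower (0.0123% each). At an unadjusted limma p under 0.05, 8 of the 34 differed (background 11.6%), with 8 lower (background 4.22%) and 0 higher (background 7.34%). The 8 were Ifit3, Isg15, Irf7, Oas3, Rsad2, Ifi35, Ifi44 and Parp14. In 9 of 34 genes, those 8 and Xaf1, every EB library was below every vehicle library, as in 14% of all genes. In 1 of 34, Usp18, every EB library was above, as in 14.3% of all genes.

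The difference was smaller without one of the vehicle libraries. Vehicle replicate 2 held the highest value of 23 of the 34 genes, against 27.7% of all genes. The median log2 fold change was -0.081 without it, with 19 of 33 genes below 0, against 51.1% of all genes. The median was -0.62 without vehicle replicate 1, with 27 of 33 genes below 0, against 50.4% of all genes. Leaving out EB replicate 1, 2 or 3, 5, 2 and 4 genes passed an unadjusted limma p under 0.05 in either direction. Of all genes 11.9%, 7.42% and 7.3% did so. The passing genes were lower, except 1 that was higher without EB replicate 1. The 8 goblet markers took 1.198%, 2.47% and 1.89% of reads in EB and 0.596% and 1.1995% in vehicle, and their part in the difference was not tested. The shares of the colonocyte and L-cell hormone markers, given above, did not overlap between the groups. Nor did that of the EC-cell markers, at 0.0131% to 0.0286% in EB and 0.00754% to 0.00821% in vehicle. The part of these lists in the difference was not tested either. The 10 stromal and endothelial markers took 0.0274% of reads in vehicle replicate 2, against 0.00132% in vehicle replicate 1 and 0.000530% to 0.000821% in EB, and their part in the difference was not tested. Over all 34 genes together the share of reads did not separate the groups, at 0.0931%, 0.0893% and 0.102% of reads in the EB libraries, against 0.0903% and 0.115% in the vehicle libraries.

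In EC cells the genes were on average higher with EB and varied far more between libraries, again with no single gene past the test. Of the 34 genes, 29 had a log2 fold change above 0, against 47.5% of the 15287 genes tested, and 5 (Irf9, Usp18, Dhx58, Ifi27 and Parp14) were below 0, against 52.5%. Their median was 1.36 on the log2 scale, 1.34 after either TMM scaling or quantile normalisation, and -0.071 for all genes. No gene was called at a limma adjusted p under 0.05 (background 0%), and none of the 34 by edgeR or DESeq2. At an unadjusted limma p under 0.05, 6 of 34 differed (background 3.55%), with 6 higher (background 2.43%) and 0 lower (background 1.11%). The 6 were Oas1a, Oas2, Oasl1, Cmpk2, Ifih1 and Zbp1. The groups were separated with EB higher in 3 of 34 (Mx1, Cmpk2 and Trim25; background 4.98%) and with EB lower in 0 of 34 (background 6.3%).

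The high EC-cell values stood mostly in EB replicates 1 and 2. These 2 libraries held the highest value of 28 of the 34 genes (17 in EB replicate 1 and 11 in EB replicate 2, each the highest library for 19.8% of all genes), and in 19 of 34 both stood above all other libraries, against 15.5% of all genes. The lowest value was in EB replicate 4 for 9 of the 34 (16.6% of all genes) and in vehicle replicate 2 for 17 (17.9% of all genes). Together the 34 genes took 0.318%, 0.294%, 0.150% and 0.173% of reads in the EB libraries, against 0.169% and 0.141% in the vehicle libraries. EB replicates 1 and 2 were thus the highest, and the other EB libraries lay beside the vehicle ones. The 12 colonocyte markers were highest in the same 2 libraries, at 2.58%, 2.63%, 0.770% and 0.453% of reads in the EB libraries, against 0.862% and 0.242% in the vehicle libraries, while the EC-cell markers were lowest in EB replicates 1 and 2, as given above. Their part in the interferon result was not tested. Leaving out both of these libraries was tried once the values had been seen, and the median log2 fold change was then 0.44, with 23 genes higher, 11 lower and 1 at an unadjusted limma p under 0.05 in each direction. Among all genes tested there, 48.8% were lower and 1.76% passed that threshold in either direction. Without vehicle replicate 1 or 2 the median was 2.38 or 0.50, with 6 or 10 of the 34 genes below 0. Of all genes 50.6% and 59.7% were then below 0. Without EB replicates 1, 2, 3 or 4 in turn, 1, 2, 6 and 13 genes passed an unadjusted limma p under 0.05 in either direction. All of these were higher, and 1.9%, 2.07%, 5.48% and 7.38% of all genes passed in either direction.

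**Figure D2:**
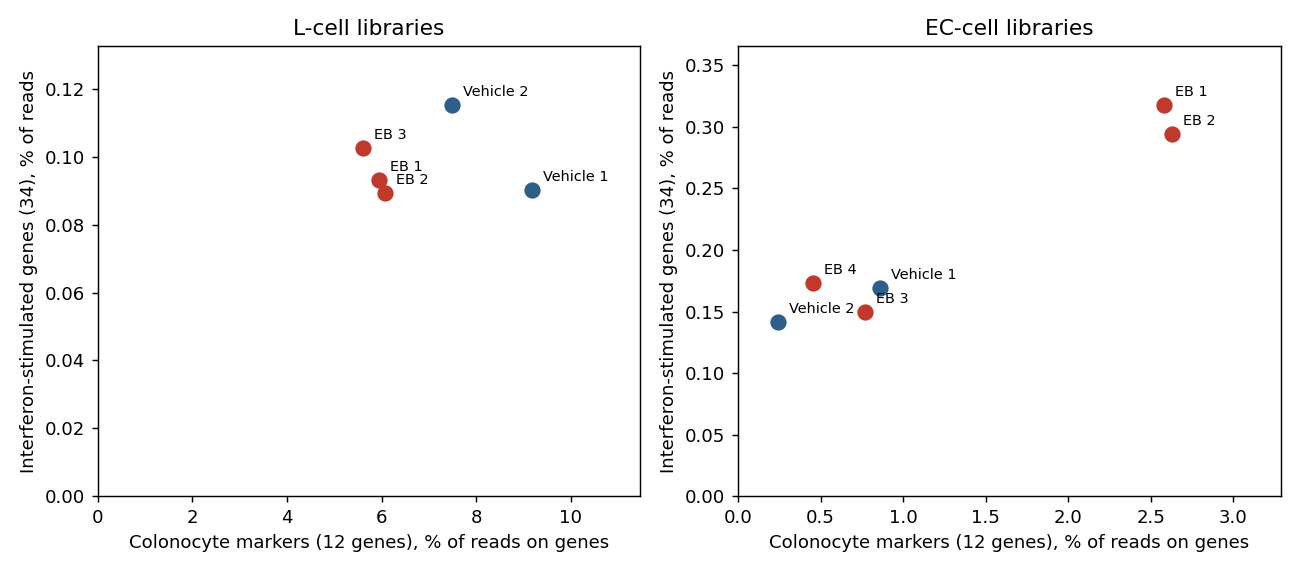
Share of reads on genes taken by the 34 interferon-stimulated genes (y axis, percent) against the share of 12 colonocyte markers (x axis, percent), a point per library, with EB in red and vehicle in blue. In EC cells EB 1 and EB 2 stand apart at 2.58% and 2.63% colonocyte markers with 0.318% and 0.294% interferon-stimulated genes. In L cells the groups overlap on the y axis and are separate on the x axis.

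Markers of blood cells were scarce in all libraries. In L cells the 12 T and NK cell markers took 0.000166% to 0.00211% of reads in EB, with 6 to 11 of them above 0, and 0.000116% to 0.000177% in vehicle, with 7 to 8 above 0. In EC cells they took 0.000176% to 0.00106% in EB and 0.00309% to 0.00487% in vehicle, with 6 to 8 above 0 in either group. The 12 macrophage and dendritic cell markers took 0.000563% to 0.00335% in EB and 0.000705% to 0.00167% in vehicle L cells, and 0.000555% to 0.0182% in EB and 0.00337% to 0.00698% in vehicle EC cells. In the EC-cell libraries where the interferon-stimulated genes were highest, 5 of these 12 were above 0 in EB replicate 1 and 8 in EB replicate 2. Lyz2 had 262 normalised counts and C1qb 169 in EB replicate 2, while Adgre1 and Itgax were at 0 in both libraries. The part of these cells in the results was not tested. The 7 B and plasma cell markers took at most 0.000498%.

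The transcription factors of the pathway are given first. Irf1 is induced above all by type II interferon, and Irf7 amplifies the type I response. Irf1 measured 4462, 4812 and 5021 normalised counts in the EB L-cell libraries, against 4075 and 7561 in the vehicle L-cell libraries. Irf7 measured 3342, 3288 and 4323 normalised counts in the EB L-cell libraries, against 4328 and 6425 in the vehicle L-cell libraries. In Irf7 every EB library was lower, EB replicate 3 by a margin of a few counts, and the log2 fold change was -0.54 ± 0.20 (SE; limma adjusted p = 0.369; -0.83 to -0.26 with a library left out). In Irf1 the EB libraries lay between the vehicle ones. Irf9 and Stat2 encode factors that act at the response element. Irf9 measured 1036, 933 and 960.4 normalised counts in the EB L-cell libraries, against 951 and 657 in the vehicle L-cell libraries. Stat2 measured 1042, 1275 and 1106 normalised counts in the EB L-cell libraries, against 1172 and 1079 in the vehicle L-cell libraries. Neither separated the groups, with log2 fold changes of 0.30 ± 0.19 (SE; limma adjusted p = 0.592; 0.037 to 0.57 with a library left out) and 0.016 ± 0.16 (SE; limma adjusted p = 0.985).

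Irf1 measured 2154, 1243, 649.9 and 1917 normalised counts in the EB libraries of EC cells, against 970.3 and 1109 in vehicle. Irf7 had 3336, 2284, 380.2 and 786 normalised counts in the EB libraries of EC cells, against 480.1 and 397 in vehicle. Both were highest in EB replicate 1, and EB replicate 3 was the lowest library for either. The log2 fold change of Irf7 was 1.49 ± 0.75 (SE; limma adjusted p = 0.905). Irf9 had 456, 231, 319 and 254 normalised counts in the EB libraries of EC cells, against 341 and 343 in vehicle. Stat2 had 1502, 242, 218 and 308 normalised counts in the EB libraries of EC cells, against 358 and 322 in vehicle. EB replicate 1 stood far above the others in Stat2, while Irf9 overlapped between groups.

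The IFIT genes form a cluster on chromosome 19 and encode proteins that bind foreign RNA. In mm10, Ifit2 lies at chromosome 19, 34550550 to 34576534, Ifit3 at chromosome 19, 34583119 to 34588982 and Ifit1 at chromosome 19, 34640889 to 34650009. Ifit1 measured 746, 794 and 933 normalised counts in the EB L-cell libraries, against 868 and 1088 in the vehicle L-cell libraries. Ifit2 measured 74.4, 66.1 and 27.1 normalised counts in the EB L-cell libraries, against 59.6 and 51.6 in the vehicle L-cell libraries. Ifit3 measured 156, 153 and 125 normalised counts in the EB L-cell libraries, against 248 and 282 in the vehicle L-cell libraries. Ifit3 was lower in each EB library, at a mean of 145 ± 17.2 (SD, n = 3) in EB and 265 ± 24.5 (SD, n = 2) in vehicle and a log2 fold change of -0.88 ± 0.25 (SE; limma adjusted p = 0.262), while Ifit1 and Ifit2 overlapped. With a library left out the fold change of Ifit3 ran from -0.97 to -0.77. Ifit3 has a close copy, Ifit3b, and how the authors' counting divided reads common to the pair is not given in the sources used here. Ifit3b measured 52.3, 96.9 and 69.6 normalised counts in the EB L-cell libraries, against 144 and 105 in the vehicle L-cell libraries. It too was lower in every EB library, with a log2 fold change of -0.79 ± 0.38 (SE; limma adjusted p = 0.476). Ifit1bl1, a gene related to Ifit1, was higher in every EB library, with 2569, 2319 and 2314 normalised counts in the EB L-cell libraries, against 1516 and 1919.9 in the vehicle L-cell libraries and a log2 fold change of 0.49 ± 0.15 (SE; limma adjusted p = 0.299).

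In EC cells the IFIT genes spanned a wide range. Ifit1 had 710.4, 388, 125 and 94.4 normalised counts in the EB libraries of EC cells, against 297 and 4.41 in vehicle. Ifit2 had 67.4, 615, 200.5 and 5.60 normalised counts in the EB libraries of EC cells, against 151 and 1.10 in vehicle. Ifit3 had 285, 36.5, 26.8 and 70.4 normalised counts in the EB libraries of EC cells, against 60.6 and 0 in vehicle. Vehicle replicate 2 was close to 0 in all 3, with 1 read of Ifit2 and 0 of Ifit3, where a count of 0 allows up to 3 reads or 3.31 normalised counts. Such limits cover counting error only, as the reads carry no molecular identifiers. Vehicle replicate 1 was within the range of the EB libraries for Ifit1, Ifit2 and Ifit3, so the groups overlapped.

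ISG15 is a small ubiquitin-like protein attached to others during the response, USP18 removes it and also restrains the type I receptor, and HERC6 is the mouse ligase for it. TRIM25 is a ubiquitin ligase that acts on RIG-I. Isg15, at chromosome 4, 156199424 to 156200818, measured 129, 79.7 and 77.7 normalised counts in the EB L-cell libraries, against 151 and 239 in the vehicle L-cell libraries. All EB libraries were lower, at a mean of 95.4 ± 28.9 (SD, n = 3) in EB and 195 ± 62.0 (SD, n = 2) in vehicle. The log2 fold change was -1.03 ± 0.36 (SE; limma adjusted p = 0.341), and from -1.35 to -0.70 with a library left out. Usp18 measured 165, 129 and 142 normalised counts in the EB L-cell libraries, against 117 and 105 in the vehicle L-cell libraries. Herc6 measured 139, 192 and 149 normalised counts in the EB L-cell libraries, against 149 and 119.9 in the vehicle L-cell libraries. Trim25 measured 2917, 2681 and 3212 normalised counts in the EB L-cell libraries, against 2742 and 3258 in the vehicle L-cell libraries. Usp18 was higher in each EB library, at a log2 fold change of 0.38 ± 0.28 (SE; limma adjusted p = 0.656), and the other 2 overlapped. Isg15 had 623, 1196, 149.5 and 25.6 normalised counts in the EB libraries of EC cells, against 88.9 and 21.0 in vehicle. Usp18 had 522, 354, 282 and 146 normalised counts in the EB libraries of EC cells, against 196 and 692 in vehicle. EB replicate 2 was highest for Isg15, but vehicle replicate 2, the lowest library for Isg15, was the highest for Usp18. Herc6 had 303, 33.9, 77.8 and 8.0 normalised counts in the EB libraries of EC cells, against 33.8 and 0 in vehicle. Trim25 had 1511, 917, 619 and 716 normalised counts in the EB libraries of EC cells, against 612 and 569 in vehicle. Trim25 was higher in every EB library, EB replicate 3 only slightly, and its log2 fold change was 0.58 ± 0.50 (SE; limma adjusted p = 0.905; 0.33 to 0.76 with a library left out).

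**Figure D3:**
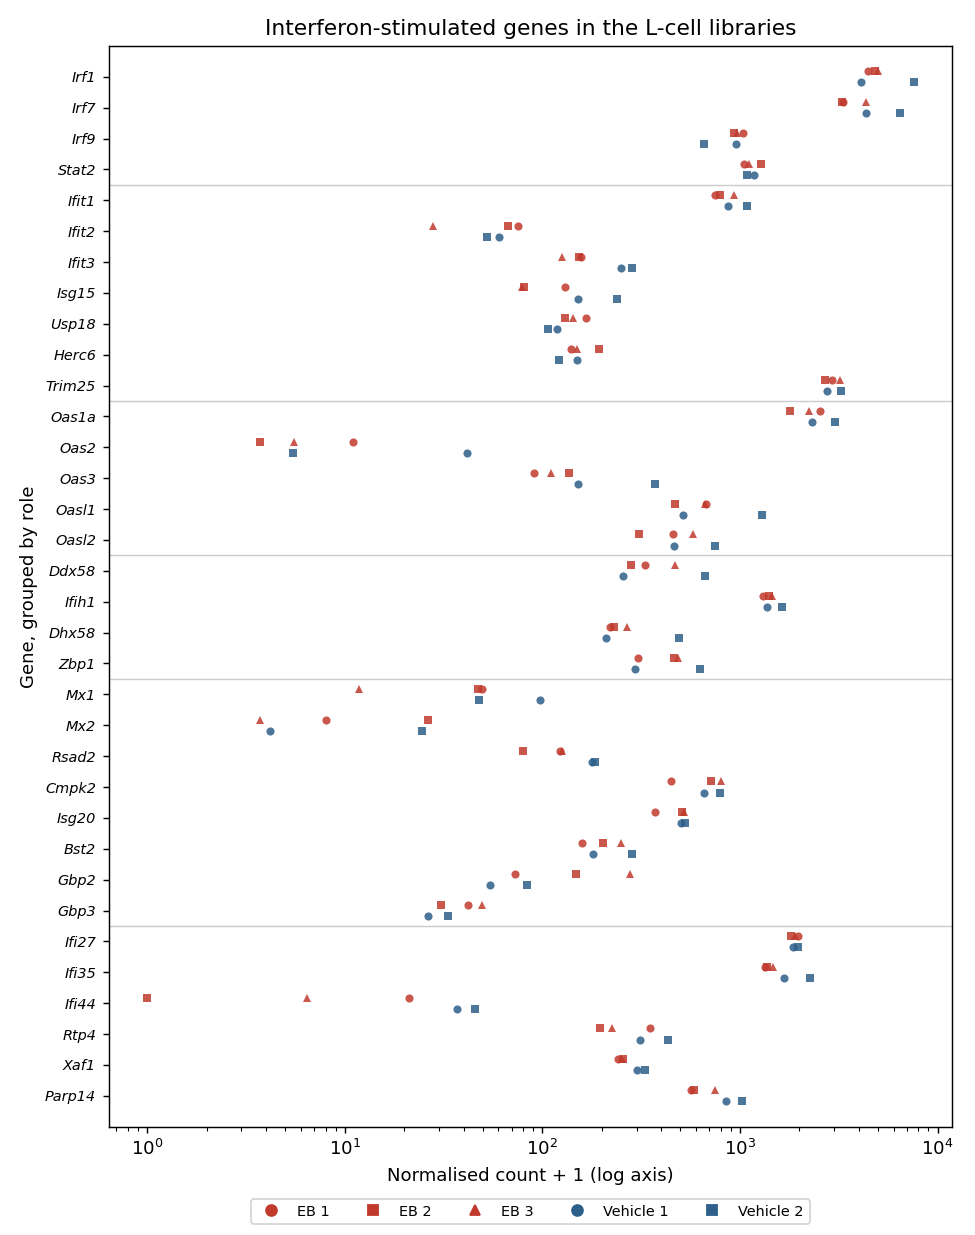
Normalised counts plus 1 (log axis) of the 34 genes in the L-cell libraries, with EB in red above vehicle in blue in each gene's row, a symbol per replicate number. Most genes overlap between groups, and Ifit3, Isg15 and Ifi44 are among the 9 in which all EB points lie left of the vehicle points.

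The OAS enzymes make short oligoadenylates that activate RNase L, and the OAS-like proteins have other roles in RNA sensing. Oas1a, Oas2 and Oas3 are neighbours on chromosome 5, with Oas3 at chromosome 5, 120753098 to 120777684. Oas1a measured 2537, 1782 and 2248 normalised counts in the EB L-cell libraries, against 2317 and 3035 in the vehicle L-cell libraries. Oas3 measured 89.5, 136 and 110.2 normalised counts in the EB L-cell libraries, against 151 and 369.9 in the vehicle L-cell libraries. In Oas3 every EB library was lower than both vehicle libraries, at a mean of 112 ± 23.2 (SD, n = 3) in EB and 260.5 ± 155 (SD, n = 2) in vehicle. The log2 fold change of Oas3 was -1.09 ± 0.41 (SE; limma adjusted p = 0.369; -1.74 to -0.45 with a library left out). Oasl1 measured 676, 469 and 664 normalised counts in the EB L-cell libraries, against 512 and 1291 in the vehicle L-cell libraries. Oasl2 measured 459, 307 and 576 normalised counts in the EB L-cell libraries, against 465 and 744 in the vehicle L-cell libraries. Vehicle replicate 2 held the highest value of Oas1a, Oasl1 and Oasl2, and in these the groups overlapped. Oas2, with a mean under 50, ran from 2.72 to 10.1 in EB and from 4.48 to 40.4 in vehicle L-cell libraries. Oas1a belongs to a group of near-identical Oas1 copies, so its reads are uncertain.

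In EC cells the OAS genes were among those furthest apart. Oas1a had 1829, 1337, 568 and 324 normalised counts in the EB libraries of EC cells, against 388 and 128 in vehicle. Oas2 had 625, 891, 301 and 61.6 normalised counts in the EB libraries of EC cells, against 179.6 and 3.31 in vehicle. Oas3 had 606, 847, 161 and 0.80 normalised counts in the EB libraries of EC cells, against 108 and 0 in vehicle. All 3 were highest in EB replicates 1 and 2, and vehicle replicate 1 stayed above EB replicate 4. The log2 fold changes were 1.87 ± 0.73 (SE; limma adjusted p = 0.905) for Oas1a and 3.52 ± 1.39 (SE; limma adjusted p = 0.905) for Oas2. Oasl1 had 960.2, 559, 127 and 173 normalised counts in the EB libraries of EC cells, against 133 and 50.7 in vehicle. Oasl2 had 1636, 1510.3, 353 and 241 normalised counts in the EB libraries of EC cells, against 356 and 141 in vehicle. These 2 also had EB replicates 1 and 2 on top, and Oasl1 had a log2 fold change of 1.99 ± 0.89 (SE; limma adjusted p = 0.905; 1.31 to 2.68 with a library left out). With a library left out the fold change of Oas1a ran from 1.07 to 2.67 and that of Oas2 from 0.83 to 6.22.

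Sensors of RNA and DNA in the cytosol came next. Ddx58 encodes RIG-I and Ifih1 encodes MDA5, the sensors of viral RNA, Dhx58 encodes the regulator LGP2 and Zbp1 a sensor of Z-form nucleic acid. Ddx58 measured 332, 281 and 467 normalised counts in the EB L-cell libraries, against 256 and 664 in the vehicle L-cell libraries. Ifih1 measured 1313, 1398 and 1454 normalised counts in the EB L-cell libraries, against 1375 and 1636 in the vehicle L-cell libraries. Dhx58 measured 219, 229 and 268 normalised counts in the EB L-cell libraries, against 208 and 492 in the vehicle L-cell libraries. All 3 had their highest value in vehicle replicate 2. Zbp1 measured 305, 462 and 487 normalised counts in the EB L-cell libraries, against 295 and 629 in the vehicle L-cell libraries. The groups overlapped in each of the 4 genes, and the log2 fold change of Ifih1 was -0.11 ± 0.15 (SE; limma adjusted p = 0.825). Ddx58 had 133, 603, 71.7 and 0.80 normalised counts in the EB libraries of EC cells, against 65.3 and 34.2 in vehicle. Ifih1 had 498, 443, 219.5 and 671 normalised counts in the EB libraries of EC cells, against 238 and 73.9 in vehicle. In Ifih1 only EB replicate 3 was below a vehicle library, with a log2 fold change of 1.67 ± 0.69 (SE; limma adjusted p = 0.905; 0.83 to 2.51 with a library left out). Dhx58 had 372, 706, 137 and 0 normalised counts in the EB libraries of EC cells, against 65.3 and 157 in vehicle. Zbp1 had 686, 713, 194 and 262 normalised counts in the EB libraries of EC cells, against 239 and 45.2 in vehicle. EB replicate 4 had 1 read of Ddx58 and 0 of Dhx58, although it held the highest value of Ifih1. Zbp1 had a log2 fold change of 1.92 ± 0.82 (SE; limma adjusted p = 0.905; 0.73 to 3.11 with a library left out).

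Among antiviral effectors, Rsad2 encodes viperin, which makes a chain-terminating nucleotide, and its neighbour Cmpk2 encodes a nucleotide kinase. Rsad2 lies at chromosome 12, 26442743 to 26456452 and Cmpk2 at chromosome 12, 26469117 to 26479837. Rsad2 measured 122, 78.8 and 125 normalised counts in the EB L-cell libraries, against 177 and 184 in the vehicle L-cell libraries. Cmpk2 measured 448, 709 and 798 normalised counts in the EB L-cell libraries, against 661 and 796 in the vehicle L-cell libraries. Rsad2 was lower in all EB libraries, with a log2 fold change of -0.76 ± 0.31 (SE; limma adjusted p = 0.415), while Cmpk2 overlapped. Rsad2 had 125, 389.6, 66.5 and 19.2 normalised counts in the EB libraries of EC cells, against 46.3 and 0 in vehicle. Cmpk2 had 84.2, 598, 122 and 322 normalised counts in the EB libraries of EC cells, against 30.6 and 15.4 in vehicle. Cmpk2 was higher in every EB library, the smallest unadjusted p of the 34 genes in EC cells, at a mean of 281 ± 235 (SD, n = 4) in EB and 23.0 ± 10.7 (SD, n = 2) in vehicle. Its log2 fold change was 3.22 ± 1.04 (SE; limma adjusted p = 0.905), and from 2.72 to 3.69 with a library left out.

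Isg20 encodes a nuclease of RNA and Bst2 encodes tetherin, which holds virions at the membrane. Isg20 measured 371, 509.9 and 523 normalised counts in the EB L-cell libraries, against 502 and 525 in the vehicle L-cell libraries. Bst2 measured 158, 201 and 250.3 normalised counts in the EB L-cell libraries, against 179 and 285 in the vehicle L-cell libraries. Both overlapped between groups. Isg20 had 47.7, 149.9, 362 and 496 normalised counts in the EB libraries of EC cells, against 242 and 142 in vehicle. Bst2 had 320.1, 304, 140.0 and 83.2 normalised counts in the EB libraries of EC cells, against 105 and 83.8 in vehicle. Isg20 went against the common order, with EB replicate 1 lowest and EB replicate 4 highest, while Bst2 was highest in EB replicates 1 and 2. The GTPase gene Gbp2 measured 71.4, 147 and 276 normalised counts in the EB L-cell libraries, against 53.2 and 82.9 in the vehicle L-cell libraries. Its highest values were in EB replicates 2 and 3, and the log2 fold change was 1.09 ± 0.55 (SE; limma adjusted p = 0.496; 0.62 to 1.59 with a library left out). Gbp3 ran from 29.9 to 48.8 in EB and from 25.5 to 32.5 in vehicle L-cell libraries. In EC cells Gbp2 and Gbp3 were low, at 0 to 37.9 and 0 to 92.0 in EB and 0 to 29.2 and 1.1 to 11.6 in vehicle.

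Mx1 and Mx2 encode dynamin-like GTPases that block viruses, and many laboratory strains carry defective Mx1 alleles. In L cells Mx1 ran from 10.8 to 48.2 in EB and from 47.1 to 96.8 in vehicle, and Mx2 from 2.71 to 25.4 in EB and from 3.19 to 23.5 in vehicle. In EC cells Mx1 ran from 11.2 to 177 in EB and from 0 to 3.24 in vehicle. Every EB library was above every vehicle library, and the log2 fold change was 3.93 ± 1.96 (SE; limma adjusted p = 0.905). Mx2 ran from 18.1 to 40.4 in EB and from 0 to 45.4 in vehicle EC-cell libraries, which overlap.

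The remaining genes have mixed or less settled roles. Ifi27 encodes a small mitochondrial protein, Ifi35 a leucine zipper protein, Rtp4 a receptor-transporting protein, Xaf1 a partner of the apoptosis inhibitor XIAP, and Parp14 a mono-ADP-ribosyltransferase. Ifi27 measured 1961, 1816 and 1904 normalised counts in the EB L-cell libraries, against 1855 and 1974 in the vehicle L-cell libraries. Ifi35 measured 1333, 1378 and 1464 normalised counts in the EB L-cell libraries, against 1664 and 2258 in the vehicle L-cell libraries. Parp14 measured 567, 587 and 745 normalised counts in the EB L-cell libraries, against 846 and 1027 in the vehicle L-cell libraries. Ifi27 was nearly flat over the 5 L-cell libraries, whereas Ifi35 and Parp14 were lower in every EB library. Their log2 fold changes were -0.48 ± 0.17 (SE; limma adjusted p = 0.341; -0.70 to -0.26 with a library left out) and -0.57 ± 0.19 (SE; limma adjusted p = 0.326). Rtp4 measured 349.8, 196 and 224 normalised counts in the EB L-cell libraries, against 309.6 and 429 in the vehicle L-cell libraries. Xaf1 measured 239, 255 and 251 normalised counts in the EB L-cell libraries, against 299 and 332 in the vehicle L-cell libraries. Xaf1 was lower in every EB library by a small margin, at a log2 fold change of -0.34 ± 0.21 (SE; limma adjusted p = 0.574), and Rtp4 overlapped. Ifi44, with a mean under 50, ran from 0 to 20.1 in EB and from 36.2 to 44.8 in vehicle L-cell libraries. Its log2 fold change of -3.01 ± 1.24 (SE; limma adjusted p = 0.415; -4.03 to -1.83 with a library left out) had the largest size among the 34 in L cells and rests on few reads.

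Ifi27 had 1203, 1153, 1114 and 1521 normalised counts in the EB libraries of EC cells, against 1043 and 1942 in vehicle. Ifi35 had 1078, 1242, 383 and 286 normalised counts in the EB libraries of EC cells, against 353 and 626 in vehicle. Parp14 had 870.4, 894, 132 and 171 normalised counts in the EB libraries of EC cells, against 391 and 441 in vehicle. Ifi27 varied least of the 3 and was highest in vehicle replicate 2, while Ifi35 and Parp14 were highest in EB replicates 1 and 2. Rtp4 had 1087, 783, 323 and 224 normalised counts in the EB libraries of EC cells, against 282 and 235 in vehicle. Xaf1 had 776, 658, 165 and 108 normalised counts in the EB libraries of EC cells, against 329 and 136 in vehicle. Ifi44 had 302, 190.3, 86.4 and 0.80 normalised counts in the EB libraries of EC cells, against 44.4 and 17.6 in vehicle. In all 3 EB replicates 1 and 2 were above the rest, and EB replicate 4 was the lowest library.

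**Figure D4:**
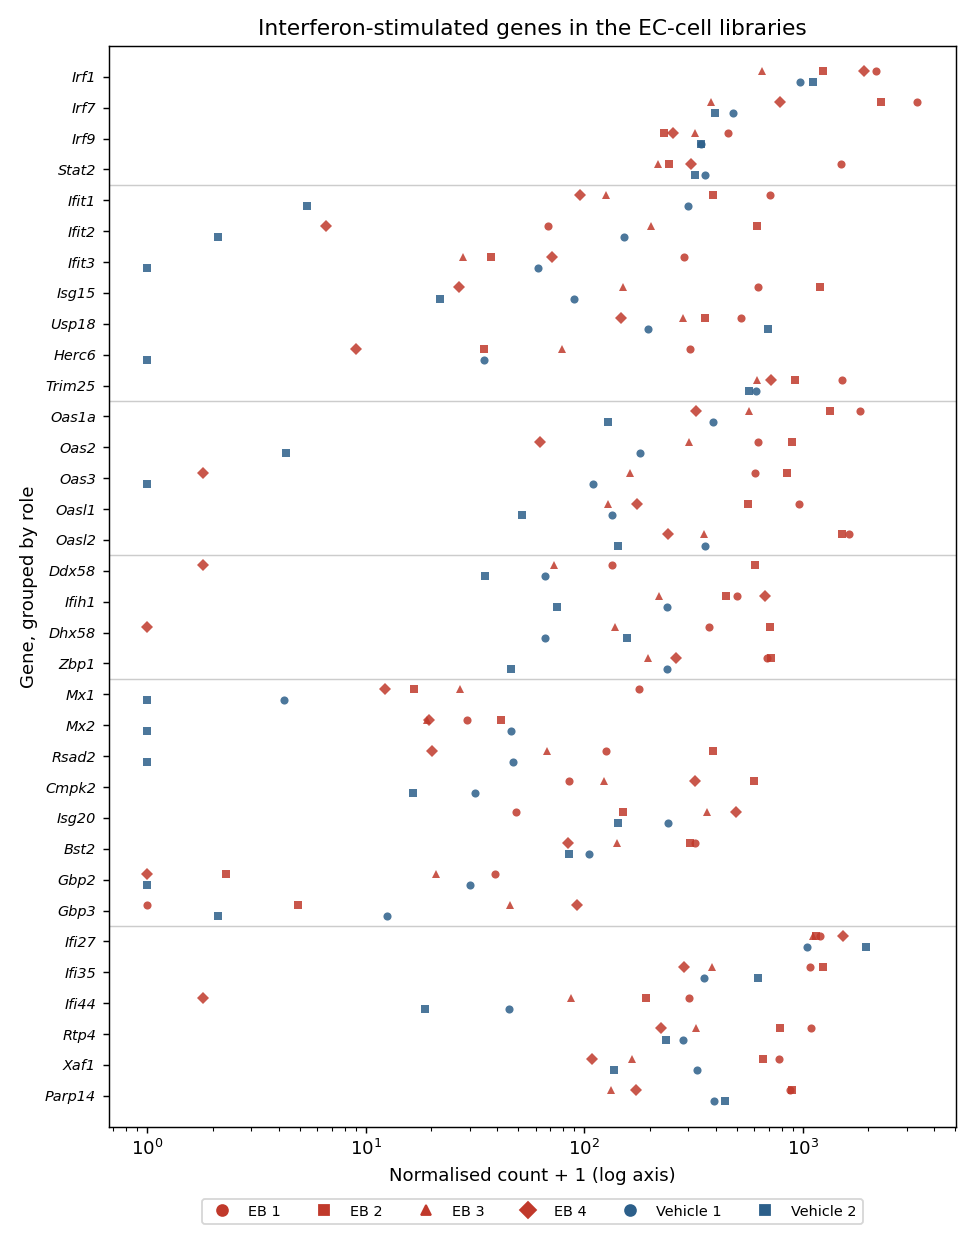
Normalised counts plus 1 (log axis) of the 34 genes in the EC-cell libraries, with EB in red above vehicle in blue in each gene's row, a symbol per replicate number. Points spread far more than in L cells, EB 1 and EB 2 lie to the right in most rows, and vehicle 2 is at 0 reads for Ifit3, Oas3, Mx1, Mx2, Rsad2, Gbp2 and Herc6.

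The 2 tables differed in how tightly these genes were held. The ratio of the highest to the lowest library was under 2-fold for 18 of the 33 genes with no library at 0 in L cells and for 2 of 25 such genes in EC cells. It was over 10-fold for 1 of these genes in L cells and for 12 in EC cells. The median ratio was 1.91 in L cells and 9.08 in EC cells. Per kb of annotated exon, Ifi27, Irf1, Oas1a, Irf7 and Ifi35 were the 5 highest in L cells in both groups. In EB their mean levels were 1291, 1198, 1161, 967 and 806 normalised counts per kb. In vehicle they were 1305, 1463, 1419.6, 1424 and 1136, in the same order of genes. Irf1 and Oas1a, next to each other in EB, differed by less than the spread of Oas1a between libraries. Oas2, Ifi44, Mx2 and Mx1 were the 4 lowest in EB. In EC cells Ifi27 was the highest in both groups, at 851 per kb in EB and 1017 in vehicle. Isg15 ranked second in EB EC cells, at 659.6 per kb, and 11th in vehicle, at 72.6.

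Whether the difference between EB and vehicle was itself different in the 2 cell types was tested over all 11 libraries. No gene of 13802 passed at a limma adjusted p under 0.05, so 0 of the 34 did (background 0%). At an unadjusted limma p under 0.05, 4 of the 34 were lower in L cells than in EC cells (Oas1a, Mx1, Cmpk2 and Ifih1; background 2.18%) and none was higher. With an EB library left out the number lower ran from 1 (without EB replicate 3 of L cells) to 11 (without EB replicate 4 of EC cells). The share of all genes passing in either direction was then 2.23% and 9.99%. Over the 34 genes the median difference (L-cell minus EC-cell log2 fold change) was -1.89, against 0.085 over all genes. For the 34 it was -2.40 or -0.75 without vehicle replicate 1 or 2 of EC cells. The contrast of Cmpk2, L-cell minus EC-cell log2 fold change, was -3.41 ± 1.09 (SE; limma adjusted p = 0.862). The opposite signs of the 2 medians are therefore not shown to be a difference between the cell types. The tables were normalised separately and the EC-cell spread was large. This fit used a shared estimate of the spread for both tables. The median deviation of the 34 genes had a within-group SD of 0.18 in L cells and 1.11 in EC cells (log2). The SEs and limma p-values of the contrast can therefore be too small. For Mx1 the SE was 1.91 in the contrast and 1.96 in EC cells alone.

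**Figure D5:**
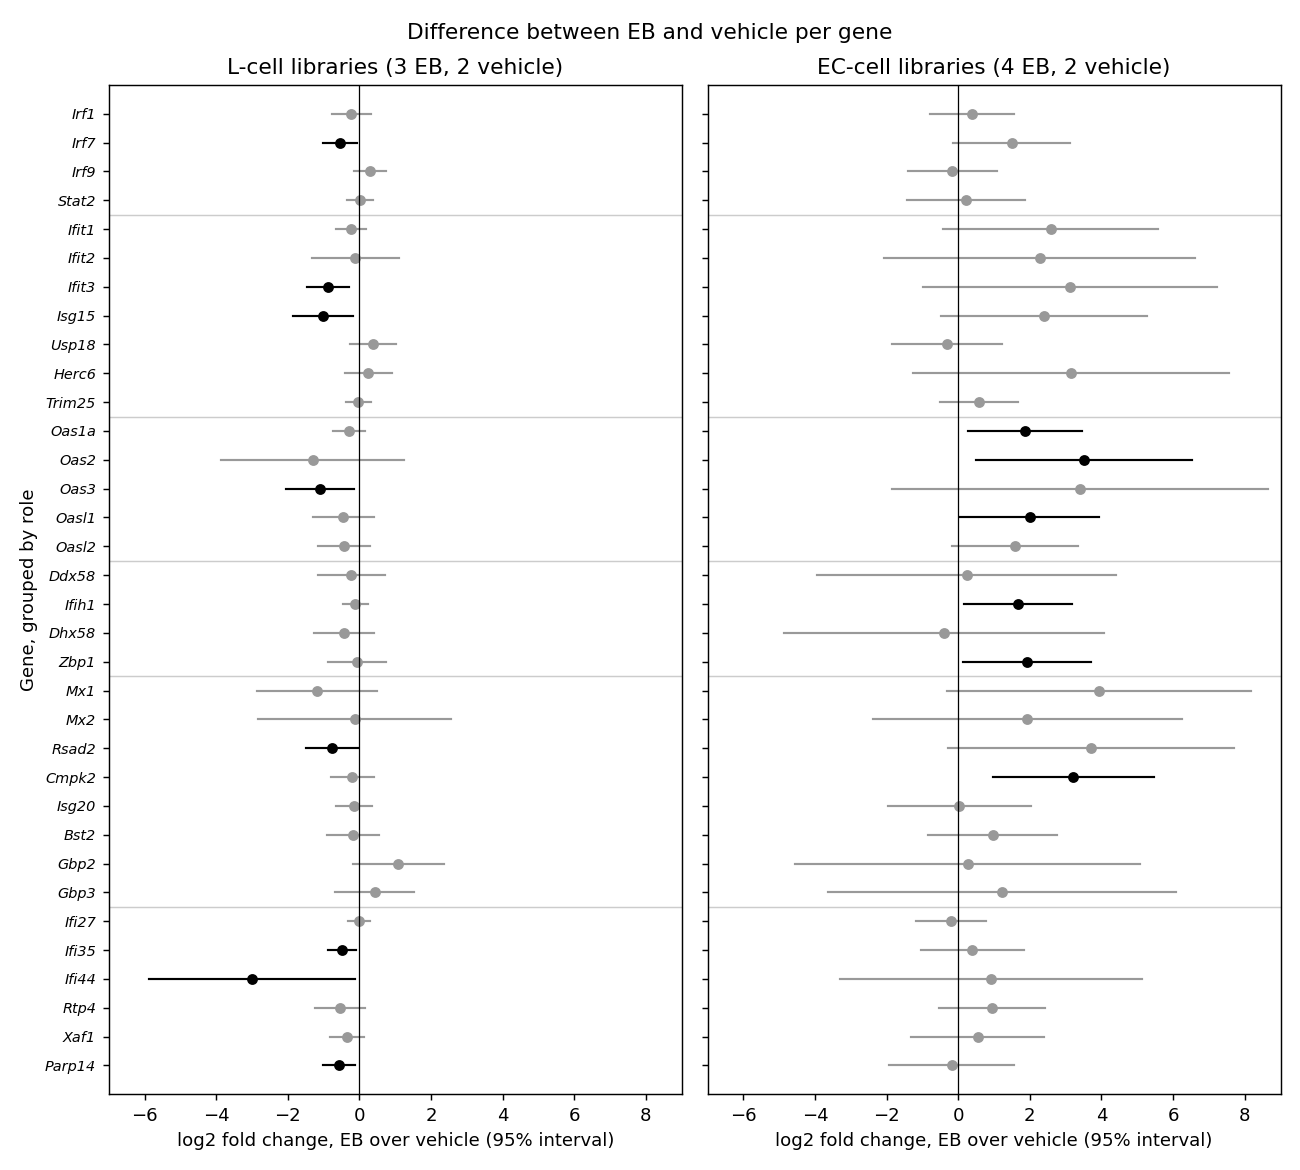
Log2 fold change of EB over vehicle on the log2(value + 1) scale for each of the 34 genes, with 95% intervals from limma, for L cells on the left and EC cells on the right. Black marks an unadjusted p under 0.05, which 8 genes reach in L cells, all below 0, and 6 in EC cells, all above 0, and no gene passes after adjustment.

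Upstream of these genes, the interferons themselves were not detected at a level that could be tested. Of 11 interferon genes, from Ifnb1 and 4 Ifna genes to Ifng, Ifnl2 and Ifnl3, none passed the filter in either table, and their reads summed to at most 13 in a library. Of the 6 receptor genes all passed, and 0 were called in either table (background 0.0247% in L cells and 0% in EC cells). With so few genes called at all, a count of 0 in a short list says little. Ifnlr1, a chain of the type III receptor, measured 285, 325 and 379 normalised counts in the EB L-cell libraries, against 254 and 272 in the vehicle L-cell libraries. Every EB library was higher, at a log2 fold change of 0.32 ± 0.22 (SE; limma adjusted p = 0.627). Ifnar1, a type I receptor chain, measured 1823, 1557 and 1551 normalised counts in the EB L-cell libraries, against 1746 and 1754 in the vehicle L-cell libraries, which overlap. Ifnar1 had 321, 195, 192 and 421 normalised counts in the EB libraries of EC cells, against 159 and 4.41 in vehicle. All 4 EB libraries were above the vehicle ones there, the log2 fold change was 3.19 ± 1.17 (SE; limma adjusted p = 0.905), and vehicle replicate 2 had 4 reads. Ifnar2, Ifngr1 and Ifngr2 had log2 fold changes of -0.060, 0.12 and -0.17 in L cells. In EC cells these were -1.26, 0.59 and 1.03, and that of Ifnlr1 was 1.95.

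No signalling gene was called either. Of 10 genes of JAK-STAT signalling 0 were called, and the list's median fold change (log2) was -0.028 in L cells over 10 kept genes and -0.31 in EC cells over 9. Socs1, an inhibitor of the pathway, measured 61.3, 179 and 198 normalised counts in the EB L-cell libraries, against 222 and 249 in the vehicle L-cell libraries. All EB libraries were lower, at a log2 fold change of -0.85 ± 0.49 (SE; limma adjusted p = 0.55), and in EC cells it stayed under the filter. Irf3, the factor that acts before interferon is made, had log2 fold changes of -0.24 in L cells and -0.065 in EC cells.

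Among genes that sense nucleic acid upstream of interferon, Sting1 had the smallest p in L cells. This adaptor of cytosolic DNA sensing measured 78.4, 144 and 166 normalised counts in the EB L-cell libraries, against 27.7 and 22.4 in the vehicle L-cell libraries. Every EB library was higher, with a log2 fold change of 2.26 ± 0.44 (SE; limma adjusted p = 0.176), the single one of 12 kept genes at an unadjusted limma p under 0.05. Sting1 had 2.81, 2.61, 107 and 104 normalised counts in the EB libraries of EC cells, against 5.56 and 1.10 in vehicle. Cgas, the DNA sensor that acts before STING, had 0, 0, 6.05 and 0.80 normalised counts in the EB libraries of EC cells, against 41.2 and 93.7 in vehicle. EB was lower there, at -5.07 ± 1.85 (SE; limma adjusted p = 0.905).

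A wider list of 53 other interferon-induced genes was divided between higher and lower in L cells. Of 45 kept there, 21 were higher and 24 lower, a median of -0.036 on the log2 scale, and 0 called (background 0.0247%). At an unadjusted limma p under 0.05 there were 5 higher (background 7.34%) and 0 lower (background 4.22%). The 4 with the smallest p were Gbp7, Ifit1bl1, Apobec3 and Cd274, at log2 fold changes of 1.33, 0.49, 1.28 and 1.33. In EC cells 40 of 50 kept were higher, against 47.5% of all genes, with a median of 0.51 and 0 called (background 0%). At that threshold 4 were higher (background 2.43%) and 0 lower (background 1.11%). These were Ddx60, Ifit3b, Samhd1 and Nlrc5, at 2.70, 4.62, 2.73 and 1.90. Ddx60, an RNA helicase gene, had 775, 781, 151 and 162 normalised counts in the EB libraries of EC cells, against 154 and 17.6 in vehicle. It showed the same 2 EB libraries on top.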

How the data were processed

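A SMART-Seq kit gave full-length cDNA, which a transposase fragmented, per the labels' protocols. The submitters' processing notes list STAR, featureCounts, DESeq2 and mm10 and give no versions. The deposited signal is a normalised count for each gene in each library, in 2 tables that the authors scaled separately. Whole reads could be recovered, since 100% of values above 0 were whole multiples of the column's step (tolerance 0.00100 read). A gene entered the test where at least 2 libraries reached 10, which left 16217 genes in L cells and 15287 in EC cells, all 34 listed ones included. Log2(value + 1) was fitted by limma 3.58.1 (R 4.3.3, trended variance, two-sided), Benjamini-Hochberg adjustment covered all genes tested, and calls were made at 0.05. Fold changes are differences of mean log2(value + 1), which the added 1 compresses at low values and which need not equal the ratio of the group means. The cell types were compared by subtracting the EC-cell from the L-cell difference in 1 fit, with a shared estimate of the spread. Other settings tried were pseudocounts 0.5 and 4, the filter dropped or raised to 50, TMM, quantile normalisation, a replicate block, single libraries left out, and edgeR 4.0.16 and DESeq2 1.42.0 run on the reads. The fits were tested on simulated data. Coordinates came from RefSeq (GRCm38.p6, the assembly of mm10), whose table held all 49997 symbols, and exon lengths from GENCODE. Values per library are given for listed genes with a mean of at least 50, and ranges for the others. From each further interferon list up to 4 genes per direction are named by p, besides fixed receptor and signalling genes, 1 of which is not reported here. The members and lists were chosen with earlier results of these data known.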

Additional observations from a re-analysis of the deposited data

Results flagged for a closer look

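In EC cells, 3 of the 34 genes had a single EB library far above the others, by the gap to its nearest neighbour relative to the range. Ifit3 reached 285 normalised counts in EB replicate 1, against 26.8 to 70.4 in the other EB libraries. Stat2 reached 1502 there, against 218 to 308. Mx1 reached 177 there, against 11.2 to 25.9. All were in EB replicate 1, in 34 groups of 4 values looked at. Chance flags about 5% of such groups where the values are independent and normally distributed. The rule was applied to counts and not to log2 values, and the 34 groups share the same 4 libraries. That rate therefore need not hold here.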

How the results depend on the processing

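No alternative called any of the 34 genes in either table. In L cells the number of all genes called was 4, but 139 with no filter, 15 with quantile normalisation, 0 in edgeR, 520 in DESeq2, 56 with the replicate block and 0 to 92 with a library left out (0 without any single EB library, 53 without vehicle replicate 2, 92 without vehicle replicate 1). In EC cells it was 0, but 11 in DESeq2, 24 with the replicate block and 0 to 1 with a library left out. For the difference between cell types it was 0, and 0 to 270 with a library left out (270 without vehicle replicate 1 of EC cells). Of the 34 genes, 4 had a lower L-cell than EC-cell fold change at an unadjusted limma p under 0.05, and 18 with the replicate block. The share of all genes passing in either direction was 4.56%, and 18.9% with the replicate block. The median log2 fold change of the 34 genes was -0.24 in L cells, and -0.62 to -0.081 with a library left out. In EC cells it was 1.36, and 2.46 with the replicate block, 0.44 without EB replicates 1 and 2 and 0.50 to 2.38 with a library left out. In both tables the replicate block takes the fold change only from EB replicates 1 and 2, whose numbers the vehicle libraries share. Whether libraries with the same replicate number in EB and vehicle are paired is not in the labels. Deviations of same-numbered libraries correlated at 0.157 and 0.148 over genes in L cells and at 0.0361 and 0.00685 in EC cells, for 2 pairs a table. The deviations of the 2 vehicle libraries mirror each other, so these values cannot settle whether the numbers are paired. Single genes kept their sign in 442 of 467 fits in L cells and 501 of 540 in EC cells, with no gene past the threshold. These fits share their libraries, and dropping or raising the filter turned no sign. Without vehicle replicate 2 alone, signs turned for 10 of 33 genes in L cells and 11 of 34 in EC cells. Signs turned in L cells for Ifi27 0.0017 with TMM scaling; Ifi27 0.060 and Trim25 0.070 with quantile normalisation; Ifit2 0.0063 in edgeR; Ifit2 0.0062 in DESeq2; Ifit2 0.33 and Mx2 0.52 with the replicate block. They turned in EC cells for Dhx58 0.072 with a pseudocount of 4; Dhx58 1.45 and Parp14 0.31 in edgeR; Dhx58 1.45 and Parp14 0.31 in DESeq2; Isg20 -1.12, Usp18 0.22, Dhx58 2.33, Gbp3 -1.21 and Parp14 1.08 with the replicate block; Stat2 -0.39, Ddx58 -2.08, Ifi35 -0.51, Ifi44 -1.21, Xaf1 -0.66 and Gbp2 -0.27 without EB libraries 1 and 2. With a library left out, L-cell fold changes that changed sign ran over Bst2 -0.51 to 0.16, Cmpk2 -0.36 to 0.053, Ddx58 -0.91 to 0.45, Dhx58 -1.04 to 0.19, Ifi27 -0.060 to 0.029, Ifih1 -0.24 to 0.012, Ifit2 -0.38 to 0.33, Irf1 -0.67 to 0.22, Isg20 -0.24 to 0.0092, Mx2 -1.41 to 0.52, Oasl1 -1.12 to 0.22, Stat2 -0.067 to 0.078, Trim25 -0.15 to 0.095 and Zbp1 -0.62 to 0.47. Those of EC cells ran over Ddx58 -0.89 to 1.90, Dhx58 -1.46 to 1.70, Gbp2 -2.20 to 2.72, Gbp3 -0.063 to 2.52, Ifi27 -0.65 to 0.25, Ifi35 -0.018 to 0.81, Ifit1 -0.31 to 5.47, Ifit2 -0.81 to 5.36, Isg20 -0.43 to 0.69, Mx2 -0.84 to 4.69, Parp14 -0.62 to 0.30, Stat2 -0.42 to 0.51, Usp18 -1.22 to 0.59 and Xaf1 -0.087 to 1.18. The cause was not tested. Low reads, at a mean under 50 normalised counts, limit Mx1, Mx2, Gbp3, Oas2 and Ifi44 in L cells. In EC cells they limit Mx1, Mx2, Gbp2 and Gbp3. The EC-cell fold changes of Ifit2, Ifit3, Oas3, Rsad2, Herc6, Ddx58, Dhx58 and Ifi44 also include a library with 0 or 1 read.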
